A study of Rattus norvegicus with 8 samples.

Results

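The 7 rat genes Cyp4a1, Cyp4a2, Cyp4a3, Cyp4a8, Cyp4b1, Cyp4f1 and Cyp4f4 encode fatty acid hydroxylases of cytochrome P450 family 4. They were measured in renal cortical slices of 4 male and 4 female untreated adult RCCHanTMWIST rats, an outbred Han Wistar stock, with 1 slice of 1 rat on each of 8 one-color Agilent arrays. A probe was assigned to a gene when its RefSeq accession mapped to it, which gave 8 probes of 30367 non-control probes, 2 of them for Cyp4a8, and 7 genes of 11827 named genes with a tested probe. Each of the 8 was well above background on 8 of 8 arrays, so all of them stayed among the 23425 probes tested. Values are log2 signals from which the array's own 75th percentile was subtracted, and differences are male minus female on this log2 scale. Levels of different genes were not compared, since each probe has its own brightness. Where signals of a gene list were summed within an array, bright probes weigh most.

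CYP4 enzymes sit in the endoplasmic reticulum and add a hydroxyl group to the terminal (omega) carbon of fatty acids, with electrons from the reductase Por. In the kidney, Cyp4a and Cyp4f enzymes convert arachidonic acid into its omega-hydroxy derivative, a lipid mediator that constricts preglomerular arterioles and lowers salt reabsorption in the tubule. Several Cyp4a genes are classical targets of the fatty acid receptor PPARα, and Cyp4f enzymes also inactivate leukotrienes. Cyp4b1 prefers shorter fatty acids and bioactivates some plant and drug compounds.

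The arrays were alike in quality. Their 75th percentiles ranged from 5025 to 6547, the share of probes well above background from 73.8% to 79.1%, 0 spots were saturated, and arrays of 1 sex correlated at 0.992 or more. All arrays were on 1 slide with 2 arrays per sex in each of its rows. Slices hold many cell types, so fewer cells of a type and less RNA per cell cannot be told apart.

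Within the family, the sexes differed in opposite directions. Cyp4a2 was male-dominant, Cyp4b1 and Cyp4f4 were female-dominant, and Cyp4a1, Cyp4a3, Cyp4a8 and Cyp4f1 did not pass both thresholds (a limma p under 0.05 after Benjamini-Hochberg adjustment over all tested probes, and a log2 fold-change of 1 or more in size). So 1 of 7 genes was called higher in males, where 0.798% of all tested probes were, and 2 of 7 higher in females, where 1.09% were. Male and female values did not overlap for Cyp4a2, Cyp4a8, Cyp4b1 and Cyp4f4, 4 of 7 genes, against 18.5% of all tested probes.

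**Figure D1:**
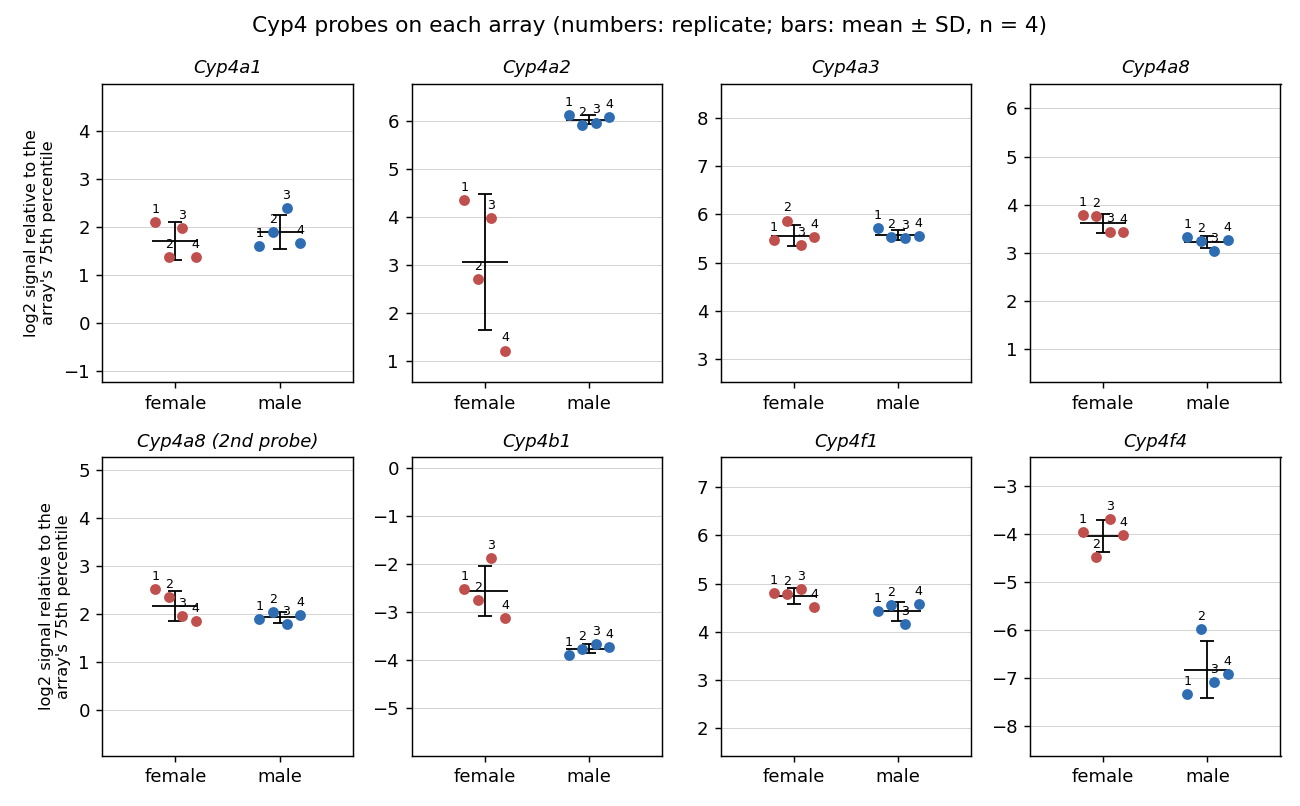
Log2 signal relative to the 75th percentile of the array (y axis, each panel spanning the same number of log2 units) for the 8 Cyp4 probes in the 4 female and 4 male rats; points are rats with their replicate number, bars the mean ± SD. The 4 males lie together for Cyp4a2 while the females spread over 3.13 units, and the sexes stand apart in opposite directions for Cyp4a2 and Cyp4f4.

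Cyp4a2, a kidney-enriched arachidonic acid omega-hydroxylase, was measured by probe A_64_P019361 for NM_001044770. The 4 males had log2 values of 6.12, 5.92, 5.96 and 6.08, a mean of 6.02 ± 0.095 (SD, n = 4). The 4 females had 4.36, 2.72, 3.97 and 1.22, a mean of 3.07 ± 1.41 (SD, n = 4). Every male was higher than every female, with 1.56 between the lowest male and the highest female. The log2 fold-change was 2.95 (SE 0.60, 95% interval 1.57 to 4.34), which is 7.74-fold, with an adjusted p of 0.0244 in limma and an exact two-sided permutation p of 0.0286, the smallest that 4 against 4 rats can give.

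Cyp4a2 varied widely among the females and little among the males. Females 1 and 3 were high, female 2 was lower and female 4 the lowest. The 4 females spanned 8.77-fold and the 4 males 1.15-fold. On the array of male 2 the 2 spots of the probe differed by 0.48 log2 units, more than the 0.20 between the 4 males. Of all tested probes, 99.7% had a smaller SD among females and 24.2% a smaller SD among males. The SE, interval and p of limma assume the same spread in both sexes, so for Cyp4a2 they are approximate. The male signals reached 44.8% to 58.5% of the scanner's limit, short of saturation. The call was lost when female 2 (adjusted p 0.0698), male 1 (0.0581), male 2 (0.0619), male 3 (0.0590) or male 4 (0.0589) was left out, although the difference stayed between 2.34 and 3.38 whichever rat was left out. Without female 4 it was 2.34 with an adjusted p of 0.0101 in limma. In the rows of the slide, with 2 rats per sex each, the difference was 3.50 and 2.40.

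Cyp4a3, a close paralog of Cyp4a2 with the same reaction, gave nearly the same values in both sexes at probe A_43_P15784 for NM_175760. The males had 5.72, 5.53, 5.50 and 5.55, and the females 5.48, 5.87, 5.37 and 5.52. The sexes overlapped throughout. The log2 fold-change was 0.014 (SE 0.12, adjusted p 0.956 in limma), and its 95% interval of -0.25 to 0.28 lay within the fold threshold on both sides. Within arrays, the Cyp4a2 value minus the Cyp4a3 value differed by 2.94 between males and females (exact permutation test, adjusted p 0.0375 over 21 pairs of genes).

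The genes lie in a row on chromosome 5 in RefSeq GRCr8, in the order Cyp4a8, Cyp4a2, Cyp4a2l1, Cyp4a3, Cyp4a1 and Cyp4b1, with pseudogenes among them. The files place probes on an older assembly, so this order comes from RefSeq and not from the files. The 250 bases before the annotated starts of Cyp4a2 and Cyp4a3 are shown because these neighbors, so alike in sequence, differed in their sex difference. Both are read on the minus strand, from chr5:134170909-134171158 and chr5:134352237-134352486, and run 5′ to 3′ toward the start. Capitals mark letters that differ or are unmatched between them, and letters beyond the aligned ends stay in lower case.
Cyp4a2: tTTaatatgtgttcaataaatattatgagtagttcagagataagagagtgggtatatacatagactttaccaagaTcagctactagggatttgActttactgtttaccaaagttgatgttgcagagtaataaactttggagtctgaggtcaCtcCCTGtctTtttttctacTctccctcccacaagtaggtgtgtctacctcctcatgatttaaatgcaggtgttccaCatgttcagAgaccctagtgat
Cyp4a3: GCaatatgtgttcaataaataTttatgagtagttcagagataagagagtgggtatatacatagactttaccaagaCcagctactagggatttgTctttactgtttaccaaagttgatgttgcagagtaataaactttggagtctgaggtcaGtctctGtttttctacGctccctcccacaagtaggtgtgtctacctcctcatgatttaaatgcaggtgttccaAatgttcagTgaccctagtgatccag
Aligned to each other, 236 of 250 positions (94.4%) were identical, 9 were substituted and 5 were gaps. The neighbor Cyp4a2l1, listed in RefSeq as a further protein-coding copy, matched Cyp4a2 in 214 of 214 overlapping positions. Transcripts of near-identical copies can share a probe. Probe sequences were not used here, so the part of Cyp4a2l1, of Cyp4a3 or of the pseudogenes in the signal of the Cyp4a2 probe was not tested.

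RefSeq promoter windows were at hand for 5 of the 7 genes, namely Cyp4a2, Cyp4a3, Cyp4a8, Cyp4b1 and Cyp4f1, and were searched on both strands. The nuclear receptor half-site AGGTCA was present 105 bases before the start in both Cyp4a2 and Cyp4a3, in the stretch gtctgaggtca that they share, and in none of the windows of Cyp4a8, Cyp4b1 and Cyp4f1. Of the 33469 rat promoter windows of this length, 14.1% hold it. Its direct repeat AGGTCANAGGTCA, the PPAR type of element that contains this half-site, was in none of the 5 windows and in 0.0508% of all. The STAT palindrome TTCNNNGAA was found only in Cyp4a8 (7.67% of all windows), its narrower form TTCCTNGAA in none (1.47%), and the steroid receptor half-site TGTTCT only in Cyp4f1 (17.5%). These matches are letters in a window and were not tested for binding.

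Cyp4a1 and Cyp4a8, the other fatty acid omega-hydroxylases of the cluster, did not pass the thresholds. For Cyp4a1 (A_64_P040870, NM_175837), males had 1.60, 1.90, 2.38 and 1.66 and females 2.11, 1.37, 1.98 and 1.38. These values overlapped, with a log2 fold-change of 0.18 (95% interval -0.35 to 0.70, adjusted p 0.678 in limma). For Cyp4a8 (A_64_P040994, NM_031605), males had 3.33, 3.25, 3.04 and 3.26 and females 3.79, 3.77, 3.44 and 3.44. All females were above all males here, by 0.11 at the nearest. The log2 fold-change was -0.39 (SE 0.11, 95% interval -0.65 to -0.13), with an adjusted p of 0.0735 in limma and an exact permutation p of 0.0286. The second Cyp4a8 probe, A_64_P040989, had the same direction, but its values overlapped (log2 fold-change -0.24, 95% interval -0.58 to 0.11, adjusted p 0.364 in limma).

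Cyp4f4, a leukotriene and arachidonic acid omega-hydroxylase, was the most female-dominant member. Its probe A_42_P675879 for NM_173123 was printed in 10 spots, all of them well above background on every array. Males had log2 values of -7.32, -5.97, -7.09 and -6.92, a mean of -6.83 ± 0.59 (SD, n = 4), and females -3.95, -4.49, -3.70 and -4.02, a mean of -4.04 ± 0.33 (SD, n = 4). The sexes were 1.48 apart at the nearest, and male 2 stood above the other males. The 10 spots spread over 1.37 log2 units on the array of male 2 and 1.03 on that of female 1. On each of these arrays 9 of the spots were kept. The raw signals were 41.4, 91.1, 47.7 and 53.8 in males and 364.1, 223.4, 428.4 and 366.2 in females, so the male values lie low in the measuring range. The log2 fold-change was -2.78 (SE 0.29, 95% interval -3.45 to -2.11), or 6.88-fold higher in females, with an adjusted p of 0.00173 in limma and an exact permutation p of 0.0286. The call held without any 1 rat and under every other processing tried, with the smallest size, -2.10, after normexp background correction. In the slide rows the difference was -3.26 and -2.31.

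Cyp4f1, which hydroxylates the same substrates and lies beyond Cyp4f4 on chromosome 7, was measured by A_43_P12051 for NM_019623. Males had 4.42, 4.54, 4.15 and 4.57, and females 4.80, 4.78, 4.89 and 4.51. Female 4 fell among the males and the other females above them. The log2 fold-change was -0.32 (SE 0.12, 95% interval -0.60 to -0.05, adjusted p 0.138 in limma, exact permutation p 0.0857). Within arrays, the female excess of Cyp4f4 was larger than that of Cyp4f1 by 2.46 (exact permutation test, adjusted p 0.0375).

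Cyp4b1 was higher in females at probe A_44_P360486 for NM_016999. Males had -3.89, -3.77, -3.66 and -3.72, a mean of -3.76 ± 0.097 (SD, n = 4), and females -2.52, -2.74, -1.87 and -3.12, a mean of -2.57 ± 0.52 (SD, n = 4). All females were above all males, by 0.54 at the nearest, and as for Cyp4a2 the females spread more widely, with female 4 the lowest. The log2 fold-change was -1.20 (SE 0.23, 95% interval -1.73 to -0.66), or 2.29-fold higher in females, with an adjusted p of 0.0201 in limma and an exact permutation p of 0.0286. The call was lost without female 1 (adjusted p 0.0515), male 1 (0.0529) or male 2 (0.0554), and without female 3, where the size dropped to -0.97 at an adjusted p of 0.0160 in limma. The slide rows gave -1.31 and -1.08.

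**Figure D2:**
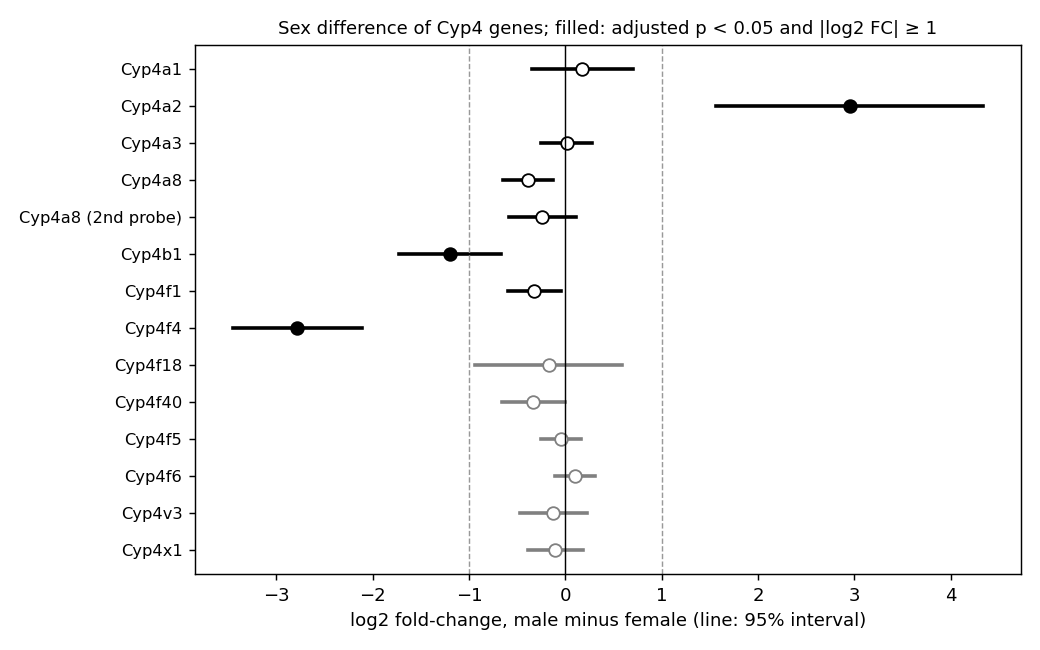
Log2 fold-change, male minus female (x axis), with its 95% interval for the 8 probes of the 7 Cyp4 genes (black) and the 6 other Cyp4 genes tested (gray); filled points passed both thresholds, dashed lines mark a log2 fold-change of 1 either way. Of these 14 probes, Cyp4a2, Cyp4b1 and Cyp4f4 passed, and the intervals of Cyp4a2 and Cyp4f4 lie wholly beyond the fold threshold. The intervals assume the same spread in both sexes, which Cyp4a2 and Cyp4b1 did not have.

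The sex differences of the genes were also compared pairwise within arrays. Of 21 pairs, 16 differed by the exact permutation test, all at its smallest p of 0.0286 and an adjusted p of 0.0375. Cyp4a2 differed from each of the other 6 genes, among them Cyp4a8 by 3.34 and Cyp4f4, the farthest, by 5.73. Both female-dominant genes differed from each other by 1.59, with the larger size in Cyp4f4. The 5 pairs that did not pass were all among Cyp4a1, Cyp4a3, Cyp4a8 and Cyp4f1, of which only Cyp4a3 and Cyp4a8 differed, by 0.40.

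Cyp4a2 and Cyp4b1 had opposite sex differences, yet their deviations from the mean of their own sex correlated (r = 0.78 over the 8 arrays). In females, both were above that mean in rats 1 and 3 and below it in rats 2 and 4. Cyp4a1 lay above and below its mean in the same females, with r = 0.63 to Cyp4a2 and r = 0.62 to Cyp4b1, whereas Cyp4a3 ran against Cyp4a1 (r = -0.66). These correlations are descriptions over 8 arrays that share 1 slide and rest largely on the 4 females. Among the males, which varied little in Cyp4a2, the likeness was not seen. Cyp4a2 and Cyp4b1 lay on opposite sides of their means in males 1 and 3, and Cyp4a2 and Cyp4a1 in all 4 males.

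**Figure D3:**
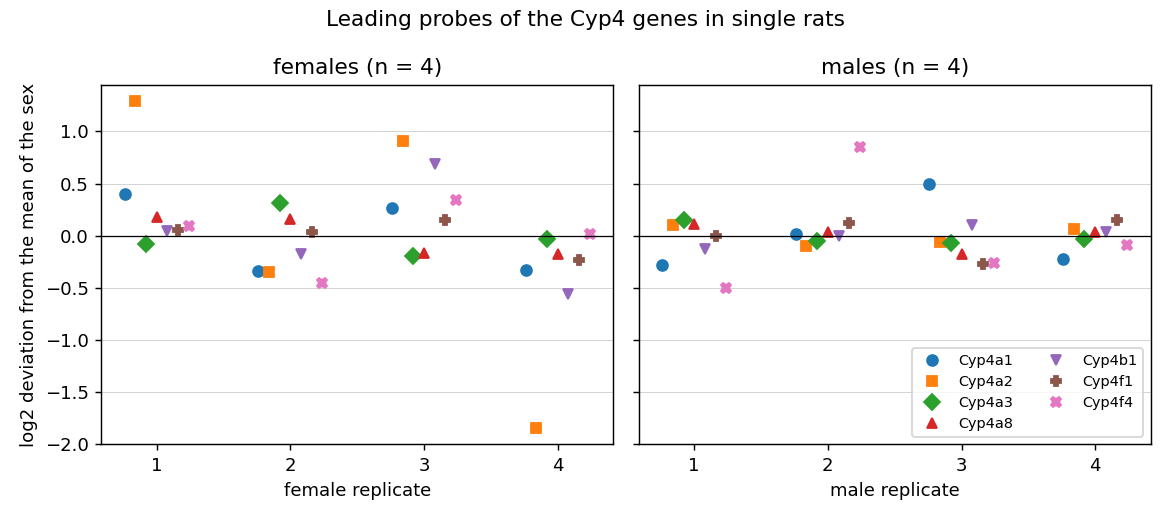
Deviation of each rat from the mean of its own sex (y axis, log2 units) at the leading probes of the 7 Cyp4 genes, by replicate number of the females (left) and the males (right). Cyp4a2 spans 3.13 units among the females and 0.20 among the males, and Cyp4a1, Cyp4a2 and Cyp4b1 lie above 0 in females 1 and 3 and below 0 in females 2 and 4.

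Among 11823 named genes, those whose 8 values ran most alike to Cyp4a2 were Tff3 (r = 0.99), Phf3 (0.98) and Sar1b (0.97). For Cyp4b1 they were Eif4ebp1 (0.99), Arxes1 (0.99) and Itpka (0.97), and for Cyp4f4 Alkbh7 (0.98), Nprl2 (0.98) and Hgfac (0.98). With the mean of each sex subtracted, the lists changed to Cfap68, Zmynd12 and Ces1d for Cyp4a2 (0.98, 0.98 and 0.98), to Nod1, Eif4ebp1 and Gstt2 for Cyp4b1 (0.99, 0.95 and 0.95) and to Tmco6 and Fars2, among others, for Cyp4f4 (0.99 and 0.99). Eif4ebp1, an inhibitor of translation initiation, was named both ways. These likenesses over 8 arrays are a description with no test.

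The other Cyp4 genes did not differ detectably. Of 9 listed, 6 had a tested probe and 0 were called, with 0 passing the adjusted p in limma. Their log2 fold-changes were -0.17 for Cyp4f18, -0.33 for Cyp4f40, -0.04 for Cyp4f5, 0.10 for Cyp4f6, -0.12 for Cyp4v3 and -0.10 for Cyp4x1. Cyp4f5 and Cyp4f40, of which Cyp4f40 is the direct neighbor of Cyp4f4 on chromosome 7, had 95% intervals of -0.25 to 0.16 and -0.66 to -0.0045. The interval of Cyp4f18, well above background on 5 arrays, was the widest (-0.94 to 0.59). The intervals of all 6 excluded a difference as large as the fold threshold.

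Of the partner enzymes of the reaction, 0 of 12 tested genes were called, against 0.798% (higher in males) and 1.09% (higher in females) of all tested probes. Por had 0.15, 0.17, 0.01 and -0.03 in males and -0.24, -0.33, -0.22 and -0.23 in females. Its values did not overlap and its log2 fold-change of 0.33 (SE 0.07) passed the adjusted p (0.0302 in limma) but not the fold threshold. It was the only one of the 12 tested genes for electron donors and for oxidation of omega-hydroxy fatty acids to pass the adjusted p. By the adjusted p alone, 3.39% of all tested probes were higher in males and 4.67% higher in females. The alcohol dehydrogenase Adh1c had the largest difference of this list, -0.64 (95% interval -1.06 to -0.23, adjusted p 0.0684 in limma), which did not pass. The median log2 fold-change of the list was 0.000715, and that of all tested probes -0.04.

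Of 15 tested genes for arachidonic acid release and its other pathways, 1 was called, higher in males, against 0.798% of all tested probes. Cyp2c11, an epoxygenase best known as the male-specific P450 of rat liver, had -0.07, -1.58, -0.82 and -0.64 in males and -6.26, -7.30, -5.78 and -7.20 in females. Every male lay far above every female, with a log2 fold-change of 5.86 (SE 0.41, adjusted p 0.000391 in limma). Cyp2c23, a renal epoxygenase, had -0.13 (adjusted p 0.283), and Ephx2, which hydrolyzes the epoxides, 0.22 (95% interval -0.01 to 0.45, adjusted p 0.214).

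The PPAR axis was examined because Cyp4a genes are known to respond to it. Ppara itself had a log2 fold-change of -0.01 (95% interval -0.54 to 0.51, adjusted p 0.982 in limma). Of 9 tested receptors and cofactors, 1 was called, higher in males, against 0.798% of all tested probes. Ppard, the related delta receptor, had -1.68, -1.73, -1.74 and -1.65 in males and -2.94, -2.71, -2.73 and -2.54 in females (log2 fold-change 1.03, SE 0.09, adjusted p 0.000743 in limma). The sexes were clearly apart and the size was just past the threshold.

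Of the 22 tested known targets of PPARα reported here, 0 were called in limma. Of all tested probes, 0.798% were called higher in males and 1.09% higher in females. By the adjusted p alone 7 of the 22 were higher in males and 0 higher in females, against 3.39% and 4.67% of all tested probes. They included the medium-chain dehydrogenase Acadm (log2 fold-change 0.48, adjusted p 0.00322), the pantetheinase Vnn1 (0.87, adjusted p 0.0206) and the peroxisomal bifunctional enzyme Ehhadh (0.55, adjusted p 0.0415). Male and female values of 11 of the 22 did not overlap, against 18.5% of all tested probes. Most of these 11 were higher in males. Of those higher in females, Pdk4, a dim probe well above background on 5 arrays, was the farthest (-1.06, adjusted p 0.0526 in limma). The median log2 fold-change of the 22 was 0.26. The summed signal of the 22 was 160 to 174 times the 75th percentile in males and 132 to 153 times in females. Of the Cyp4a genes in the same arrays, Cyp4a2 was called higher in males (log2 fold-change 2.95). Cyp4a1 (0.18), Cyp4a3 (0.014) and Cyp4a8 (-0.39) were not called. A link between the PPARα targets and these genes was not tested.

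Markers of cell types in and around the cortex were set beside these results, and 0 of 58 tested genes of 12 lists were called. Of all tested probes, 0.798% were called higher in males and 1.09% higher in females, so a list of this size says little. Proximal tubule markers of segments 1 and 2 (10 of 10 tested) summed to 225 to 233 times the 75th percentile in males and 232 to 247 times in females, and those of segment 3 (7 of 8 tested) to 154 to 176 and 155 to 199 times. Within the females, the segment 3 sum was 199, 192, 192 and 155 times in rats 1 to 4. Female 4, with the lowest Cyp4a2, was also the lowest female for the liver, adipose and thick ascending limb lists (0.355, 1.03 and 58.1 times). It was not the lowest for any other cell type list, among them the glomerulus and the collecting duct. The males, all higher in Cyp4a2 than any female, had segment 3 sums of 154 to 176 times. Sums were higher in all females than in all males for the glomerulus (5 of 5 tested, 12.2 to 13.0 against 10.5 to 11.0 times) and the thick ascending limb (4 of 5 tested, 58.1 to 65.6 against 48.0 to 55.7 times). The adipose list (4 of 5 tested) summed to 1.03 to 1.60 times in females and 0.702 to 1.03 times in males, and its Lpl passed the adjusted p (-0.79, adjusted p 0.0184 in limma). So did, in limma, Cubn of segments 1 and 2 (-0.59, adjusted p 0.00452), Slc1a1 of segment 3 (0.65, 0.0238), Podxl of the glomerulus (-0.27, 0.0354) and Cldn16 of the thick ascending limb (-0.62, 0.0287), each under the fold threshold. Cubn and Slc1a1 went against the median log2 fold-change of their own lists, 0.08 for segments 1 and 2 and -0.16 for segment 3. Defining markers of the adrenal gland (Cyp11b1, Cyp11b2, Star, Mc2r), liver (Tat, Cps1) and lung (Sftpc, Sftpb) were not well above background on enough arrays to be tested. Other members of these lists were tested, namely Cyp17a1 for the adrenal gland, Alb, Apoa2 and Fga for the liver, and Scgb1a1 and Foxj1 for the lung. Of these, Fga (-0.60, adjusted p 0.0406) and Foxj1 (-0.59, adjusted p 0.0378) passed the adjusted p in limma. Over all tested probes, 3.39% passed it with higher values in males and 4.67% with higher values in females. Alb (0.53) of the liver list and Scgb1a1 (0.30) of the lung list went the other way and did not pass. The summed signals of the tested members were 0.0315 to 0.0437 times the 75th percentile in males and 0.0383 to 0.0511 times in females for the adrenal list, 0.284 to 0.368 and 0.355 to 0.518 times for the liver list, and 0.0670 to 0.0940 and 0.0624 to 0.0879 times for the lung list. The part of these shifts in the results for Cyp4a2, Cyp4b1 and Cyp4f4 was not tested.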

How the data were processed

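RNA of 8 cortical slices was labeled with Cy3 and hybridized to SurePrint rat arrays, 1 per rat. The authors deposited the processed signal intensity of every spot, which Feature Extraction 10.7.3.1 had background-subtracted, without normalizing arrays to each other. The deposited log2 values are equal in distribution across arrays, as after quantile normalization. The submitters' processing notes name limma 3.8.2, without its role.

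Spots that the software flags as outliers (non-uniform or population) were dropped, the intensities were put on the log2 scale with no pseudocount, the array's 75th percentile over non-control spots was subtracted, and spots of a probe were averaged. Probes well above background on at least 4 arrays were fitted as male minus female (R 4.3.3, limma 3.58.1 with lmFit and eBayes, data.table version 1.17.8), with no covariates and Benjamini-Hochberg adjustment over 23425 probes. This model was also tested on simulated arrays. Single values had the two-sided exact permutation test over 70 assignments, and pairs of genes the same test on within-array differences. Promoter windows and gene order came from RefSeq GRCr8 (Python 3.11.15, Biopython 1.88), and figures from matplotlib 3.10.9.

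Samples were grouped by the sex and replicate in their titles, and each rat is a separate animal. Precision is limited by having 4 arrays per sex. Probes were named by RefSeq accession. The leading probe of a gene is the one of highest mean signal. Named in the text were all members, the called genes of the pathway lists with up to 4 others per list, all other Cyp4 genes, and the 3 genes most like each called member. A few genes that this rule names are not reported here, and the PPARα target list is given without them. Members and lists were chosen with earlier results of these data known. Alternatives were quantile normalization, the authors' log2 values, normexp background correction with an offset of 16, other filters, outlier spots kept, another prior, array weights, blocks for replicate number and slide row, the second probe, and leaving out each rat. Real-time PCR and promoter assays were not analyzed here.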

Additional observations from a re-analysis of the deposited data

How the results depend on the processing

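Across 18 alternatives, the difference stayed between 2.34 and 3.38 for Cyp4a2, -1.38 and -0.97 for Cyp4b1, and -3.07 and -2.10 for Cyp4f4. The Cyp4f4 call held in all 18. Quantile normalization, the authors' log2 values, normexp, both filters, outlier spots, the other prior, array weights and the slide row changed no call of a member. With the replicate block, Cyp4a2 was 2.95 with an adjusted p of 0.0512 in limma, so the number of genes higher in males was 0, and the block changed no other call of a member. A check of whether the replicate numbers pair the rats was weak and cannot exclude pairing. Same-numbered males and females deviated together with r = 0.13, 0.04, -0.01 and 0.12 for numbers 1 to 4. The highest r with another number was 0.05, 0.09, 0.02 and 0.12. The block moved the calls over all probes from 443 to 372. Leaving out 1 rat gave 0 to 1 genes higher in males and 1 to 2 higher in females, with Cyp4a2 at 2.34 to 3.38, Cyp4b1 at -1.38 to -0.97 and Cyp4a3 at -0.05 to 0.12. Cyp4a3, not called, turned in sign without female 1 (-0.013), female 3 (-0.051) or male 1 (-0.036). Fewer rats enter these fits, and the cause of each lost call was not tested. Cyp4a8 passed the adjusted p (0.0390) only with the intensity trend and robust prior, and missed the fold threshold there. The 21 pairwise differences kept their side of the threshold under quantile normalization and the authors' log2 values, and the list counts were the same under quantile normalization, the only scaling tried for them. Arrays give no read depth; the lowest member signal, 41.4 for Cyp4f4, limits how well male levels of that gene are known.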
